A study of Mus musculus with 30 samples.

Results

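Livers of mice whose hepatocytes lack the transcription factor C/EBPα held mRNAs that were near 0 or low in floxed control livers. A list of 9 genes drawn up for that pattern, which *Fam107a* shows in only 1 of 3 experiments, is described here mouse by mouse: *Spink1*, *Tff3*, *Lrtm2*, *Slc13a5*, *Tinag*, *Pls1*, *Gipc2*, *Pak6* and *Fam107a*. They are 9 of the 55450 genes in the count table, and they were chosen by their counts, near 0 or low in *Cebpa* fl/fl liver and high in knockout liver, that is, selected on the genotype contrast. Their genotype differences are therefore given as values, with no test. *Tff3* was well above 0 in every control group. Whole liver mRNA came from male mice backcrossed to C57BL/6N, 30 libraries from 30 mice in 6 groups of 5, in 3 experiments on a diet rich in fat, cholesterol and fructose (HFCFD). In HFCFD2W, *Cebpa* ΔHep mice, whose Cre is driven constitutively by the albumin promoter, and *Cebpa* fl/fl mice without Cre ate the diet for 2 weeks. In HFCFD8W+T10D, tamoxifen-inducible *Cebpa* ΔHep,ERT2 mice and *Cebpa* fl/fl mice are labelled with 8 weeks of diet and 10 days of tamoxifen, with no word on whether the 8 weeks include those days. The mice of HFCFD12W+T10W had 12 weeks of diet and then 10 more weeks of it with tamoxifen. All mice carried the floxed alleles, and in these 2 experiments controls received tamoxifen too. The albumin promoter directs Cre to hepatocytes, and the livers were sequenced whole, with every other cell type in them. More cells of a type and more RNA per cell cannot be told apart in such samples. Ages were not given in the sources used here.

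C/EBPα is a basic leucine zipper protein that binds DNA as a dimer and keeps up the expression of metabolic and secretory genes in the adult hepatocyte. It also restrains hepatocyte proliferation. Most of these genes are best known from other tissues: *Spink1* from the exocrine pancreas, *Tff3* from goblet cells, *Pls1* from the intestinal brush border, *Tinag* from kidney basement membrane and *Fam107a* from brain, while *Slc13a5* is a liver gene that takes up citrate.

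The sequence upstream of each start site was read because the factor removed is one that binds DNA, and RefSeq (GRCm38.p6) gave windows for 6 of the 9 genes, 11 start sites in all, each of 250 bases before and 50 after the start. Both strands were searched for letters of the C/EBP site (TTGCNNAA), the CCAAT box (CCAAT), the TATA box (TATAAA) and the AP-1 site (TGACTCA). The C/EBP letters stood in 1 of the 11 windows, that of *Tinag*, 100 bases before the start, and are held by 10.8% of all 32851 windows of that length. CCAAT stood only at the second start of *Slc13a5*, 57 bases before it (37.4% of all windows), and TGACTCA only at the first start of *Pak6*, 12 bases after it (5.2% of all). TATAAA was in none of the 11, against 13.6% of all windows. The bases upstream of 4 first starts, outside the annotated gene, are shown so that the window with the letters stands beside 3 without. They are 27.8% G or C in *Tinag*, 55.5% in *Pls1*, 60.3% in *Slc13a5* and 63.2% in *Lrtm2*, beside a median of 52.4% over all windows. Capitals mark the C/EBP letters.
Tinag, chr9:77045795-77046031, minus strand: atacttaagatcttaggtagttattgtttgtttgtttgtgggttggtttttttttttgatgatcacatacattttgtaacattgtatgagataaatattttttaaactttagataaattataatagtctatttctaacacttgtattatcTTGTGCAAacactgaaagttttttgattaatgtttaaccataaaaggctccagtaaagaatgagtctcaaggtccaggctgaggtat
Pls1, chr9:95845312-95845529, minus strand: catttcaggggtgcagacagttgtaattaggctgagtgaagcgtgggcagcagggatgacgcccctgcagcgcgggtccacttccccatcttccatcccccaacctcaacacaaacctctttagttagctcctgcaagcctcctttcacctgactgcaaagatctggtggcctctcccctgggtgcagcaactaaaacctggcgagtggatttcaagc
Slc13a5, chr11:72267223-72267411, minus strand: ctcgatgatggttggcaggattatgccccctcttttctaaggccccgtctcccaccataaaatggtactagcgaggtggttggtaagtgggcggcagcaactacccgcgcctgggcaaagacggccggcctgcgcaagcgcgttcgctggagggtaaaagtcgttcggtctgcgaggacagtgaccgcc
Lrtm2, chr6:119330767-119331016, minus strand: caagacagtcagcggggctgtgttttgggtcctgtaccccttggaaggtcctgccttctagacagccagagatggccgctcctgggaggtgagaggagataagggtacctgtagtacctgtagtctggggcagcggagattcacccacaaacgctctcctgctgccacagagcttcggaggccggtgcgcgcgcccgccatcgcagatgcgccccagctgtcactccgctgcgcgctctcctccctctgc

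*Cebpa*, the deleted gene, was lower in every knockout mouse than in every control. In HFCFD2W the controls had 187, 193, 171, 149 and 186 CPM (counts scaled to library size after TMM scaling of all 30 libraries, in replicate order here and below) and *Cebpa* ΔHep mice 3.43, 4.26, 5.67, 5.36 and 4.97 CPM. In the inducible experiments the knockout mice kept more, 15.2, 25.1, 21.5, 12.9 and 11.1 CPM in HFCFD8W+T10D, then 20.7, 23.8, 22.5, 18.7 and 20.5 CPM in HFCFD12W+T10W. Knockout means were 2.68%, 11.9% and 18.6% of the control means in the 3 experiments. Library totals ran from 7996128 to 10257366 counts, and none of the 270 counts of the 9 genes was a fraction.

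In each of the 3 experiments 8 of the 9 genes had every knockout mouse above every control, though not the same 8 throughout. That pattern was found, in turn, in 6.33%, 6.01% and 19.5% of all genes tested. These counts follow from how the genes were picked. The exceptions were *Tinag* in HFCFD2W, which overlapped, and *Fam107a*, which overlapped in HFCFD8W+T10D and had every knockout mouse below every control in HFCFD12W+T10W. The label of a gene switched on in Cebpa-deficient liver therefore goes against the data for *Fam107a* outside HFCFD2W. *Tff3* was not switched on from near 0 either. Its controls averaged 10.2, 6.05 and 9.29 CPM in the 3 experiments, so a gene already present rose. Fitted fold changes over 2 in the knockout direction, from edgeR, were found for 8, 7 and 8 of the 9, beside 1.9%, 4.77% and 14.5% of all genes tested. With an adjusted p as well, the shares of all genes that rose were 1.69%, 4.09% and 14.3% and those that fell 1.38%, 2.01% and 3.47%. *Tinag* in HFCFD2W and *Pak6* in HFCFD8W+T10D had too few counts for that fit.

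**Figure D1:**
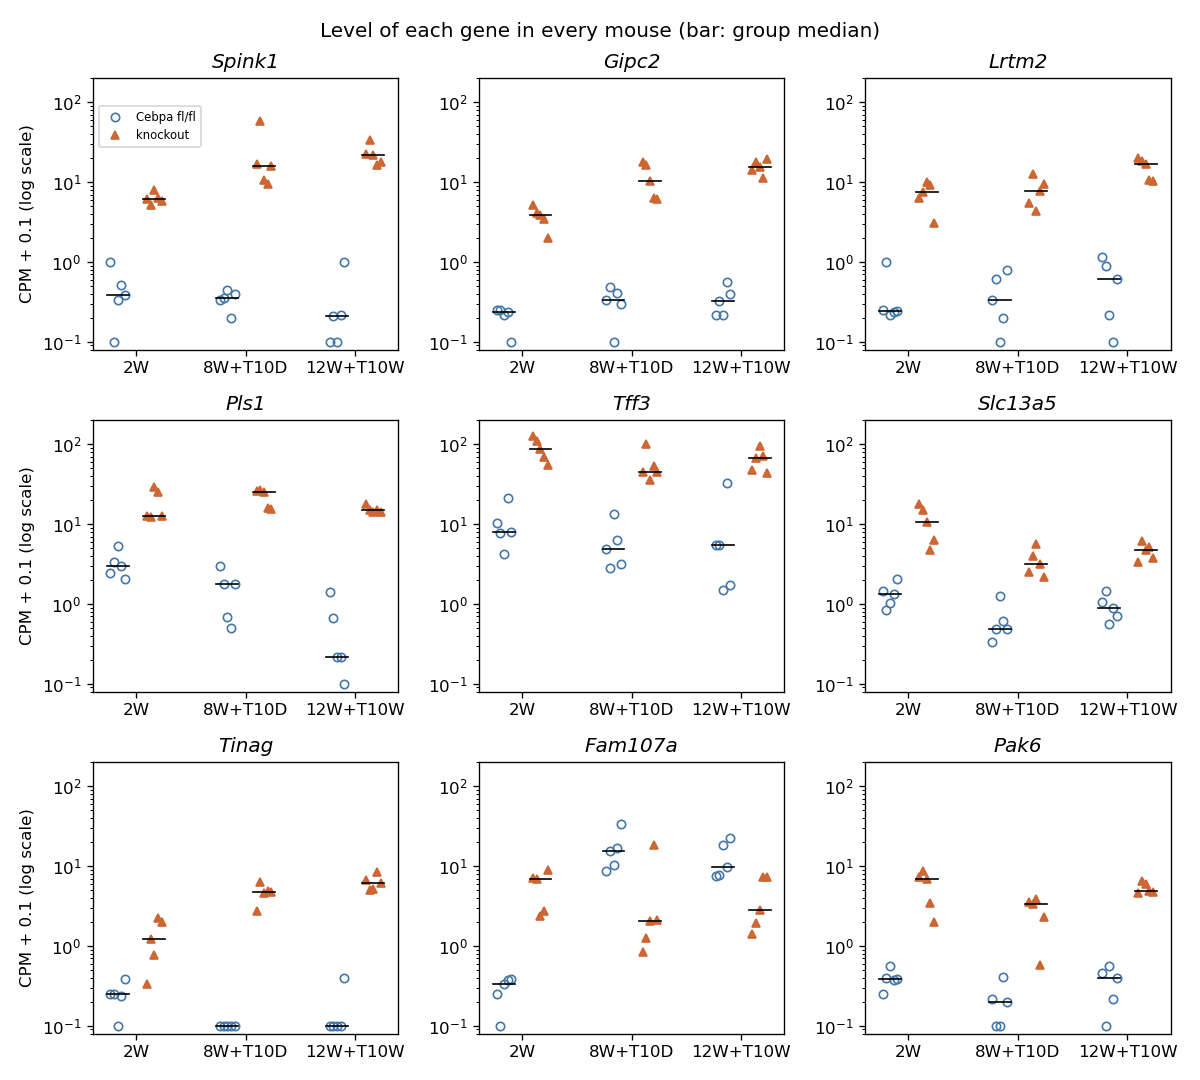
Each panel shows 1 gene, with CPM plus 0.1 on a log axis and 1 point per mouse for the 3 experiments (open circles, *Cebpa* fl/fl; triangles, knockout; bars, group medians, n = 5). Knockout mice sit above controls everywhere except for *Tinag* in HFCFD2W, where the groups overlap, and *Fam107a*, whose groups overlap in HFCFD8W+T10D and whose controls are all higher in HFCFD12W+T10W.

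*Spink1*, a Kazal-type inhibitor of trypsin that the pancreas secretes with its zymogens, was all but absent from control liver. In HFCFD2W the controls had 0.890, 0, 0.233, 0.414 and 0.284 CPM, which is 0 to 6 counts, and *Cebpa* ΔHep mice 6.03, 5.05, 7.83, 6.26 and 5.64 CPM. The groups did not overlap, the knockout mice were close together, and the ratio of means was 16.9. In HFCFD8W+T10D the controls had 0.102 to 0.347 CPM and *Cebpa* ΔHep,ERT2 mice 17, 59.1, 10.5, 9.48 and 15.7 CPM. Replicate 2 was far above the other 4 knockout mice. The controls held 3 counts or fewer each, so the knockout mean of 22.4 ± 20.8 CPM (SD, n = 5) was at least 66.5-fold higher than a floor of 3 counts per library, and it was 13.2 CPM without replicate 2. In HFCFD12W+T10W the controls had 0, 0.113, 0, 0.115 and 0.908 CPM and the knockout mice 22.3, 33.8, 21.7, 16.4 and 17.7 CPM, a ratio of 98.5 and a fitted log2 fold change of 6.48 (SE 0.46). Control replicate 5 held most of the control counts, and without it the control mean fell from 0.227 to 0.0570 CPM. Of the 13 markers of pancreatic acinar cells fixed for comparison, 12 held 3 counts or fewer in each of the 30 libraries, and the sum of all 13 stayed between 0 and 1.06 CPM in every mouse.

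*Tff3* (chr17:31125306-31129646, minus strand, GRCm38) encodes a trefoil peptide that mucus-secreting epithelia release with mucins. Per length, as TPM, it had the highest mean of the 9 in every group. HFCFD2W controls had 10.2, 7.57, 4.08, 21.2 and 7.94 CPM and *Cebpa* ΔHep mice 127, 110.4, 87, 69.7 and 55.4 CPM. HFCFD8W+T10D controls had 4.75, 2.71, 13.4, 6.29 and 3.05 CPM and knockout mice 45.2, 102, 35.3, 53.1 and 45.6 CPM. The groups were separate, though 1 control in each of these experiments (replicates 4 and 3) was clearly above its group. In HFCFD12W+T10W the controls had 5.46, 5.43, 1.38, 32.6 and 1.61 CPM and the knockout mice 48, 68, 95.2, 72.4 and 43.2 CPM. Control replicate 4 came closest to the knockout range, whose lowest mouse was 1.33 times as high. The ratios of means were 8.8, 9.3 and 7.03 in the 3 experiments, and fitted log2 fold changes 3.15 (SE 0.34), 3.23 (SE 0.41) and 2.87 (SE 0.62). The last became 4.28 without control replicate 4. The goblet cell genes *Muc2*, *Agr2* and *Agr3*, picked after their values were seen, had no count in any of the 6 groups. *Fcgbp*, of the same list of mucosal secretion genes, averaged 1.15 to 2.91 CPM in these groups.

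*Lrtm2* (chr6:119315133-119330766, minus strand) encodes a transmembrane protein with leucine-rich repeats. Controls had 0.117 to 0.890 CPM in HFCFD2W, 0 to 0.688 CPM in HFCFD8W+T10D and 0 to 1.07 CPM in HFCFD12W+T10W. Knockout mice had 6.27, 7.4, 10.0, 9.07 and 2.95 CPM, then 5.33, 12.4, 4.22, 7.59 and 9.3 CPM, then 20.1, 18.3, 17, 10.7 and 10.3 CPM. No control reached the lowest knockout mouse in any experiment. Ratios of means were 24.9, 25.3 and 30.8, and fitted log2 fold changes 4.61 (SE 0.49), 4.61 (SE 0.49) and 4.96 (SE 0.41). The first of these was 5.56 without control replicate 2, and the second 5.20 without control replicate 5. *Lrtm2* lies inside *Cacna2d4*, a calcium channel subunit gene on the opposite strand. *Cacna2d4* averaged 0 and 0.534 CPM in control and knockout mice of HFCFD2W, 0.0463 and 0.731 CPM in HFCFD8W+T10D, and 0.0202 and 1.48 CPM in HFCFD12W+T10W. The kit marks strand, but the strand setting of the counting was not given in the sources used here, and whether the 2 genes share reads was not tested.

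*Slc13a5* (chr11:72241989-72267222, minus strand) encodes the sodium-coupled transporter that brings citrate from plasma into hepatocytes. HFCFD2W controls had 1.33, 0.742, 0.932, 1.24 and 1.99 CPM and *Cebpa* ΔHep mice 18, 15, 10.7, 4.6 and 6.17 CPM. It was low but present in control liver, and the groups were separate. In HFCFD8W+T10D the values were 0.232, 0.388, 1.16, 0.508 and 0.393 CPM in controls and 2.43, 3.94, 5.52, 3.08 and 2.09 CPM in knockout mice, and in HFCFD12W+T10W 0.950, 1.36, 0.459, 0.803 and 0.605 CPM and 3.22, 5.99, 4.64, 5.1 and 3.72 CPM. Knockout mice of the 2 inducible experiments reached less than most *Cebpa* ΔHep mice did. Ratios of means were 8.73, 6.37 and 5.43, with fitted log2 fold changes of 3.13 (SE 0.42), 2.66 (SE 0.40) and 2.47 (SE 0.27).

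*Tinag* (chr9:76951693-77045794, minus strand), tubulointerstitial nephritis antigen, is a glycoprotein of kidney basement membranes. In HFCFD2W the controls had 0.148, 0.148, 0, 0.138 and 0.284 CPM and *Cebpa* ΔHep mice 0.237, 1.12, 0.675, 2.17 and 1.88 CPM. Knockout replicate 2 lay within the control range, and the other 4 knockout mice above it. In HFCFD8W+T10D no control library held a read, while knockout mice had 2.62, 6.33, 4.55, 4.86 and 4.65 CPM, 28 to 77 counts. In HFCFD12W+T10W control replicate 5 held 3 counts and the other 4 controls none, and knockout mice had 6.53, 4.89, 5.06, 8.29 and 6.14 CPM. Since all control libraries were at 3 counts or fewer in every experiment, the knockout mean was at least 2.93-fold, 13.7-fold and 18.3-fold higher than a floor of 3 counts per library. Of 10 markers of kidney tubule, 8 held 3 counts or fewer in all 30 libraries, and their sum ran from 0.113 to 1.15 CPM in controls and 0.958 to 2.87 CPM in knockout mice of HFCFD12W+T10W, with *Lrp2* the most abundant.

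*Pls1* (chr9:95752642-95845311, minus strand) encodes plastin 1, which bundles actin filaments in microvilli. HFCFD2W controls had 2.37, 3.26, 5.24, 2.9 and 1.99 CPM and knockout mice 12.4, 12.2, 29.2, 25.2 and 12.8 CPM. HFCFD8W+T10D controls had 2.89, 1.68, 0.579, 0.406 and 1.67 CPM and knockout mice 25.8, 26.9, 25.5, 15.6 and 15.4 CPM. Knockout mice were at like levels in the 2 experiments while controls were lower in the second. In HFCFD12W+T10W the controls had 1.31, 0.566, 0.115, 0.115 and 0 CPM and the knockout mice 17.8, 15.1, 14.1, 14.9 and 14.1 CPM, the narrowest knockout group of any of the 9 genes, with a coefficient of variation of 9.98%. Ratios of means were 5.82, 15.1 and 36.1, with fitted log2 fold changes of 2.5 (SE 0.33), 3.94 (SE 0.36) and 5.23 (SE 0.39), the last 6.23 without control replicate 1.

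*Gipc2* (chr3:152093533-152166230, minus strand), a PDZ-domain adaptor of the GIPC family, was at 0 to 1 counts in controls of HFCFD2W, 0 to 3 in HFCFD8W+T10D and 1 to 4 in HFCFD12W+T10W. Knockout mice had 5.08, 4.04, 3.78, 3.32 and 1.88 CPM, then 18, 16.3, 10.4, 6.28 and 5.98 CPM, then 13.9, 17.6, 15.5, 11.3 and 19.4 CPM. All knockout mice stood clear of all controls. The knockout mean was at least 8.71-fold higher than the floor of 3 counts per library in HFCFD2W and at least 33.8-fold in HFCFD8W+T10D. For HFCFD12W+T10W the ratio of means was 63.6, with a fitted log2 fold change of 5.95 (SE 0.27). The annotation has 9 transcripts of it, and RSEM gave it a mean length of 793 to 1465 bases in knockout mice, so its values per length are less certain than its counts.

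*Pak6* (chr2:118663303-118698020, plus strand) encodes a group II p21-activated kinase. Controls held 1 to 4 counts in HFCFD2W, 0 to 3 in HFCFD8W+T10D and 0 to 4 in HFCFD12W+T10W. Knockout mice had 7.33, 8.52, 6.89, 3.32 and 1.88 CPM, then 3.46, 3.29, 3.79, 0.474 and 2.18 CPM, then 4.53, 6.46, 5.9, 4.74 and 4.6 CPM. Replicate 4 of HFCFD8W+T10D was near the controls, with 4 counts against at most 3 in them. Ratios of means were 19 and 21.3 in HFCFD2W and HFCFD12W+T10W, with fitted log2 fold changes of 4.15 (SE 0.50) and 4.39 (SE 0.35), and the HFCFD8W+T10D mean was at least 7.84-fold higher than a floor of 3 counts per library.

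*Fam107a* (chr14:8296274-8318023, minus strand), an actin-associated protein known from brain, behaved differently. In HFCFD2W the controls had 0.148, 0, 0.233, 0.276 and 0.284 CPM, all at 2 counts or fewer, and *Cebpa* ΔHep mice 6.98, 6.84, 2.3, 2.68 and 8.99 CPM, at least 13.4-fold higher than a floor of 3 counts per library. In HFCFD8W+T10D the controls had 8.68, 15.3, 10.3, 16.9 and 34 CPM and the knockout mice 0.749, 1.15, 1.95, 18.3 and 1.99 CPM. Knockout replicate 4 lay inside the control range and the other 4 knockout mice below it. In HFCFD12W+T10W the controls had 7.36, 7.58, 18.1, 9.64 and 22.2 CPM and the knockout mice 1.31, 1.8, 2.7, 7.29 and 7.27 CPM, so that every knockout mouse was below every control, the closest pair being 7.29 and 7.36 CPM. Fitted log2 fold changes were -1.89 (SE 0.71) in HFCFD8W+T10D, -3.55 without knockout replicate 4, and -1.63 (SE 0.46) in HFCFD12W+T10W. Knockout means in the 3 experiments were 5.56 ± 2.93 CPM, 4.82 ± 7.53 CPM and 4.08 ± 2.96 CPM (SD, n = 5 each), apart by less than their SDs, while control means were 0.188 ± 0.118 CPM, 17 ± 10.1 CPM and 13 ± 6.77 CPM. Its profile over the 30 libraries had a Pearson r of -0.17 with the mean standardized profile of the other 8 genes, where those 8 had r from 0.82 to 0.95 with the rest. Such high r values follow in large part from how the genes were picked, since the libraries are of both genotypes.

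**Figure D2:**
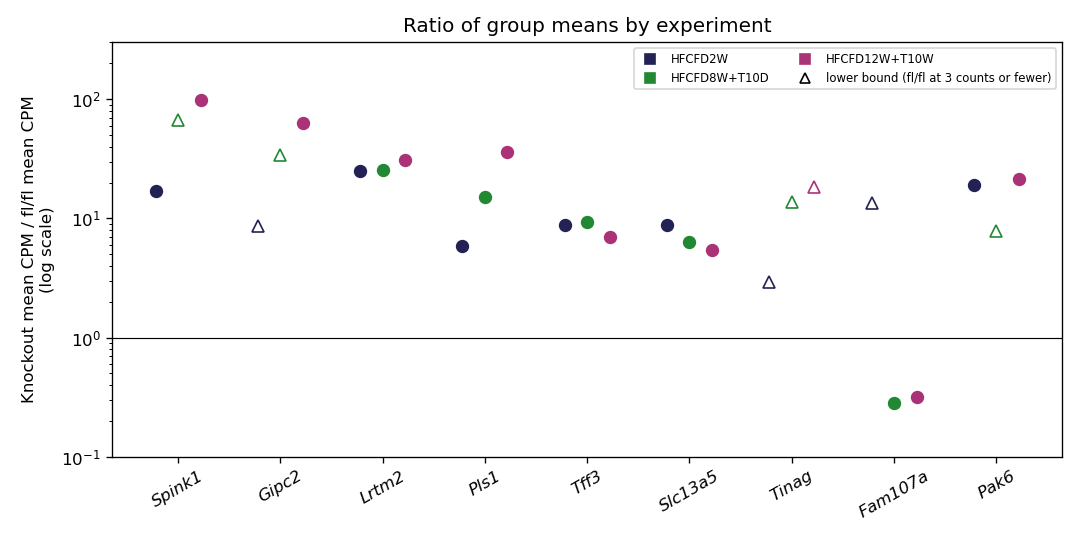
Knockout mean CPM divided by *Cebpa* fl/fl mean CPM for each gene on a log axis, in 3 experiments (n = 5 mice per group). Open triangles are lower bounds, where all control libraries held 3 counts or fewer. All ratios are above 1 but those of *Fam107a* in HFCFD8W+T10D (0.283) and HFCFD12W+T10W (0.314).

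To set the genes beside each other, levels per length were taken as the TPM that RSEM gave. In *Cebpa* ΔHep livers of HFCFD2W *Tff3* led with 328 ± 111 TPM, followed by *Spink1* with 12 ± 1.82 TPM (SD, n = 5), and their mice did not overlap with each other or with the next gene. *Pls1*, *Gipc2*, *Slc13a5*, *Lrtm2*, *Fam107a*, *Pak6* and *Tinag* followed, from 5.7 down to 0.804 mean TPM, each overlapping with the next in its mice. In HFCFD8W+T10D all neighbours in the order overlapped, with *Tff3* at 273 ± 165 TPM and *Spink1* at 61.9 ± 67.1 TPM. In HFCFD12W+T10W *Tff3* (389 ± 125 TPM), *Spink1* (70.8 ± 23.2 TPM) and *Gipc2* (25.1 ± 7.15 TPM) were each separate from the gene below. *Lrtm2*, *Pls1* and *Tinag* then overlapped at 7.38, 7.04 and 6.53 mean TPM. *Slc13a5*, *Pak6* and *Fam107a* were lowest, at 2.7, 2.35 and 2.19 mean TPM and overlapping. By rank of mean TPM among all genes, *Spink1* moved from place 11071 in controls to 4062 in knockout mice of HFCFD2W and from 12402 to 1357 in HFCFD12W+T10W, while *Tff3* moved from 1799 to 316 and from 1921 to 315.

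The mice within a knockout group were not equally high. The coefficient of variation of CPM had a median over the 9 genes of 44.6%, 46.8% and 24.3% in the 3 experiments in turn. In HFCFD8W+T10D replicate 2 was the highest knockout mouse for 5 of the 9 genes, *Spink1*, *Lrtm2*, *Pls1*, *Tff3* and *Tinag*. It also held the most *Cebpa* of its group and the most genes with a count (16950). How often it was highest over all genes was not counted, and a link to *Cebpa* was tested only as the slope below. In the other 2 knockout groups no mouse was highest for more than 3 of the 9.

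Whether the level in knockout liver differed between experiments was tested in 1 edgeR fit of all 30 libraries, a comparison other than the genotype contrast that chose the genes. High counts in knockout liver were also part of that choice. These experiments differ in Cre, tamoxifen, time on the diet and batch, and those cannot be told apart. From HFCFD2W to HFCFD8W+T10D, 5 of the 9 genes changed, beside 49.8% of all genes tested (24.5% higher and 25.3% lower). *Spink1* was higher by a log2 difference of 1.88 (SE 0.38, adjusted p = 1.47e-04), *Gipc2* by 1.65 (SE 0.27, adjusted p = 1.21e-05) and *Tinag* by 1.92 (SE 0.37, adjusted p = 1.29e-04). For these 3 genes every HFCFD8W+T10D knockout mouse was above every HFCFD2W knockout mouse. *Slc13a5* was lower by a log2 difference of -1.68 (SE 0.31, adjusted p = 4.83e-05) and *Pak6* was lower by a log2 difference of -1.07 (SE 0.35, adjusted p = 0.0135), both with overlapping mice. Without HFCFD2W knockout replicate 3 the adjusted p of *Pak6* was 0.0584 and its difference -0.86. *Tff3* had a log2 difference of -0.67 (SE 0.47, adjusted p = 0.235), *Lrtm2* 0.13 (SE 0.34, adjusted p = 0.766), *Pls1* 0.26 (SE 0.29, adjusted p = 0.471) and *Fam107a* -0.29 (SE 0.63, adjusted p = 0.73).

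From HFCFD8W+T10D to HFCFD12W+T10W, 2 of the 9 changed, *Lrtm2* by 0.96 (SE 0.32, adjusted p = 0.0234) and *Pak6* by 0.97 (SE 0.35, adjusted p = 0.0372), both higher, beside 27.7% of all genes, with 13% higher and 14.7% lower. *Lrtm2* lost its call without HFCFD8W+T10D knockout replicate 1 or 3 or without HFCFD12W+T10W knockout replicate 1 or 2, with adjusted p of 0.0552 to 0.0651. *Pak6* lost it without HFCFD8W+T10D knockout replicate 4 or 5 or HFCFD12W+T10W knockout replicate 2 or 3, with adjusted p of 0.0688 to 0.101. *Spink1* had a log2 difference of -0.01 (SE 0.34, adjusted p = 0.981). *Gipc2*, at 0.44 (SE 0.24, adjusted p = 0.177), and *Pls1*, at -0.53 (SE 0.29, adjusted p = 0.176), missed the threshold.

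**Figure D3:**
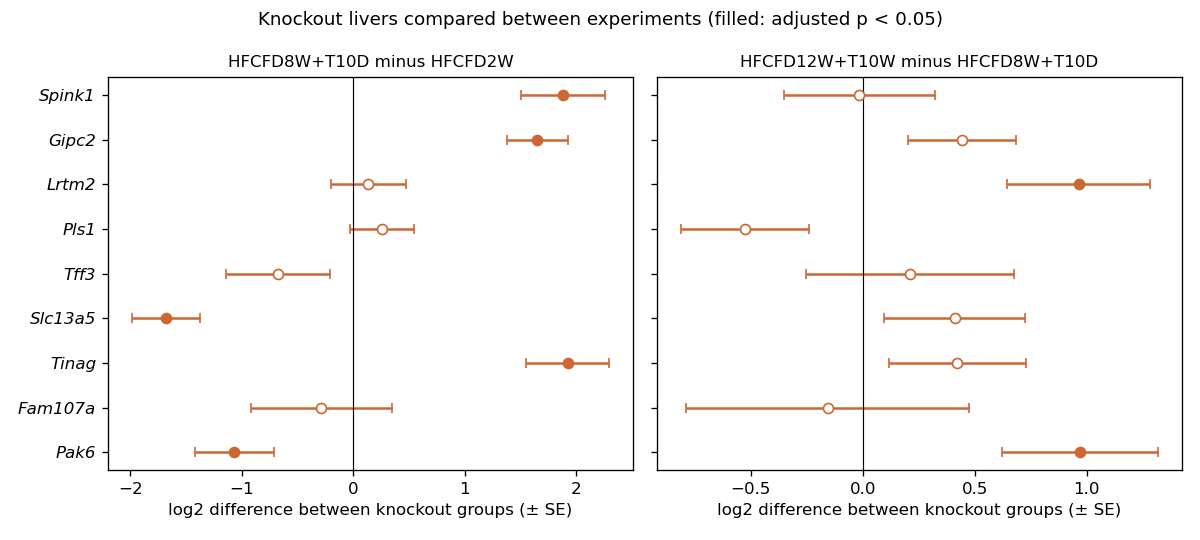
Log2 difference of each gene between knockout groups of 2 experiments, with its standard error (n = 5 mice per group), as HFCFD8W+T10D minus HFCFD2W on the left and HFCFD12W+T10W minus HFCFD8W+T10D on the right. Filled points have an adjusted p under 0.05 in edgeR, namely *Spink1*, *Gipc2*, *Slc13a5*, *Tinag* and *Pak6* on the left and *Lrtm2* and *Pak6* on the right.

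Control livers were compared in the same way. Low control levels were part of how the genes were chosen. In HFCFD8W+T10D, which enters both contrasts, all controls of *Spink1*, *Gipc2*, *Tinag* and *Pak6* held 3 counts or fewer. The number of the 9 called here therefore cannot show whether control levels stayed the same. From HFCFD2W to HFCFD8W+T10D, 2 of the 9 genes changed, beside 43.6% of all genes, with 22.2% higher and 21.5% lower. *Fam107a* rose from 0.188 ± 0.118 CPM to 17 ± 10.1 CPM (SD, n = 5), at least 40.9-fold higher than a floor of 3 counts per library, with an adjusted p of 9.17e-06 in edgeR and no overlap. *Pls1* was lower, 3.15 ± 1.27 CPM against 1.45 ± 1.00 CPM, a log2 difference of -1.16 (SE 0.46, adjusted p = 0.0397) that missed the threshold without any 1 of 6 mice, replicates 3, 4 and 5 of HFCFD8W+T10D and 2, 3 and 4 of HFCFD2W, with adjusted p of 0.0511 to 0.153. *Slc13a5* had a log2 difference of -1.20 (SE 0.52, adjusted p = 0.0608). From HFCFD8W+T10D to HFCFD12W+T10W, 0 of the 9 passed in edgeR, beside 11.4% of all genes (6.31% higher and 5.12% lower), with 1 of 9 at an unadjusted p under 0.05. That gene was *Pls1*, at 1.45 ± 1.00 CPM and 0.420 ± 0.541 CPM, a log2 difference of -1.78 (SE 0.65, adjusted p = 0.0705). DESeq2 called 1 of the 9 there and limma 0.

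Knockout mice kept different amounts of *Cebpa* mRNA, and each gene was regressed on it over the 15 knockout mice with the experiment as a covariate. No gene of the 9 had a slope past the threshold in edgeR, where 1.81% of all genes did (1.56% rising with *Cebpa* and 0.251% falling). At an unadjusted p under 0.05 there were 3. *Spink1* changed by 1.42 (SE 0.38, unadjusted p = 0.00181, adjusted p = 0.0697) on the log2 scale per doubling of *Cebpa*, *Pls1* by 0.89 (SE 0.25, unadjusted p = 0.00256, adjusted p = 0.0828) and *Fam107a* by -2.56 (SE 0.96, unadjusted p = 0.0169, adjusted p = 0.204). DESeq2 called 2, *Spink1* with an adjusted p of 0.0379 and *Pls1* with 0.0209, and limma 0. Without HFCFD8W+T10D knockout replicate 3 *Spink1* passed in edgeR with an adjusted p of 0.0131. The other 6 slopes ran from -0.01 for *Slc13a5* to 0.62 for *Gipc2*.

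**Figure D4:**
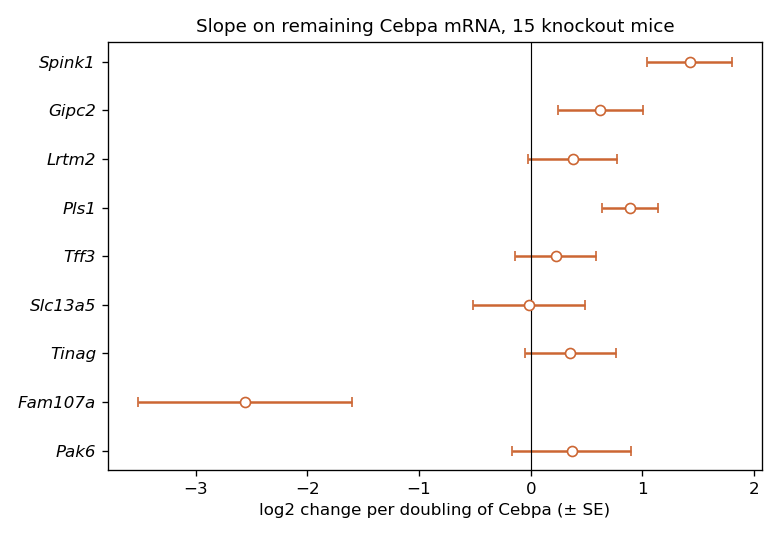
Slope of each gene, as log2 change per doubling of *Cebpa* mRNA among 15 knockout mice with the experiment as a covariate, with its standard error. *Spink1* has the highest slope (1.42) and *Fam107a* the lowest (-2.56), and no adjusted p is under 0.05 in edgeR.

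The genes beside the 9 on their chromosomes were not chosen for their levels, so their genotype differences were tested, and a gene was called where edgeR gave a fold change over 2 with its adjusted p below 0.05. They were the nearest protein-coding gene on each side, 18 in all, and 6 genes that overlap a member. Of these 24, enough counts for the fit were held by 8, 9 and 10 in the 3 experiments. None was called in HFCFD2W, beside 3.07% of all genes, with 3 at an unadjusted p under 0.05 and 0 called by DESeq2 or limma. In HFCFD8W+T10D 3 rose, where 6.1% of all genes were called, and in HFCFD12W+T10W 4, where 17.7% were. None fell past the threshold. *Bub1b*, a mitotic checkpoint kinase gene next to *Pak6*, rose from 1.37 ± 0.543 to 3.86 ± 1.12 CPM in HFCFD8W+T10D, a log2 fold change of 1.53 (adjusted p = 0.00586), and from 0.655 ± 0.388 to 3.33 ± 0.700 CPM in HFCFD12W+T10W, 2.34 (adjusted p = 6.93e-05). *Abcg1*, a sterol exporter gene next to *Tff3*, rose by 1.00 (adjusted p = 0.00793) and 1.03 (adjusted p = 1.22e-04) in these experiments. *Xaf1*, next to *Slc13a5* and known as induced by interferon, rose by 1.10 (adjusted p = 0.00376) and 1.06 (adjusted p = 8.65e-04). *Abcg1* and *Xaf1* were close to the fold change of 2. *Abcg1* lost its call in 9 and 7 of 16 alternatives in the 2 experiments, and *Xaf1* in 2 and 6. The mice without which *Abcg1* lost it were knockout replicates 2 and 3 and control replicates 4 and 5 of HFCFD8W+T10D, and knockout replicates 1 and 2 and control replicates 1, 2 and 4 of HFCFD12W+T10W. For *Xaf1* they were HFCFD8W+T10D knockout replicate 2, and knockout replicates 1 and 5 and control replicates 1, 3 and 4 of HFCFD12W+T10W. *Ptgfr*, a prostaglandin F receptor gene next to *Gipc2*, rose from 0.241 ± 0.198 to 1.41 ± 0.743 CPM in HFCFD12W+T10W, 2.52 (adjusted p = 0.00162), and was not called by limma on the authors' values, with a log2 fold change of 0.92. The next genes were picked out after their values were seen. *Tff2*, a trefoil gene 11402 bases from *Tff3*, averaged at most 0.344 CPM in any group, and *Trpc1*, 2266 bases from *Pls1*, at most 0.628 CPM. *Atr*, on the other side of *Pls1*, had a log2 fold change of 0.25 (adjusted p = 0.0846) in HFCFD12W+T10W. *Acox2*, next to *Fam107a*, had -0.22 (adjusted p = 0.309). Some neighbours shifted by less than the fold minimum. *Adipor2*, next to *Lrtm2*, had -0.71 (adjusted p = 6.75e-04) in HFCFD12W+T10W. *Dnajb4*, next to *Gipc2*, had 0.52 (adjusted p = 0.0122) in HFCFD2W and -0.45 (adjusted p = 0.00307) in HFCFD12W+T10W. Among the 6 overlapping genes, 4 had no count in any library.

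Of 25 paralogues, 9 had enough counts in HFCFD2W and HFCFD8W+T10D and 11 in HFCFD12W+T10W, and 1 was called, *Pak1*, a group I p21-activated kinase, with a log2 fold change of 1.09 (adjusted p = 0.00129) in HFCFD8W+T10D and 1.48 (adjusted p = 4.74e-06) in HFCFD12W+T10W. It went from 4.35 ± 0.881 to 11.9 ± 1.48 CPM in the latter. The HFCFD8W+T10D call was lost without control replicate 4 (log2 fold change 0.998) and in limma (0.920). *Pak2* had log2 fold changes of 0.17 (adjusted p = 0.275) and 0.33 (adjusted p = 0.0036) in the inducible experiments and *Pak4* 0.06 (adjusted p = 0.767) and 0.32 (adjusted p = 0.0654). Of the plastins, *Pls3* had -0.59 (adjusted p = 1.74e-04) in HFCFD2W and -0.93 (adjusted p = 1.07e-05) in HFCFD12W+T10W, both negative and under a fold change of 2, while the leukocyte plastin *Lcp1* had 0.03 (adjusted p = 0.795) and 0.48 (adjusted p = 3.86e-04). *Gipc1* had 0.66 (adjusted p = 0.00329) and the dicarboxylate transporter *Slc13a3* 0.83 (adjusted p = 5.43e-04) in HFCFD12W+T10W. *Fam107b* was negative in all 3 experiments, at -0.29 (adjusted p = 0.0201), -0.95 (adjusted p = 9.01e-04) and -0.65 (adjusted p = 7.89e-05). *Tinagl1* had 0.38 (adjusted p = 0.167), 0.05 (adjusted p = 0.864) and 0.18 (adjusted p = 0.523). *Lrtm1* went from 1.62 ± 0.735 to 0.127 ± 0.0908 CPM in HFCFD2W, too low for the fit, and had -0.23 (adjusted p = 0.771) in HFCFD12W+T10W. *Slc13a4* had 0.16 (adjusted p = 0.825) there, and *Spink5* averaged 0.458 and 1.12 CPM, too low for the fit. The median log2 fold change of the paralogues fitted was 0.03, 0.17 and 0.32 in the 3 experiments, beside 0.01 over all genes in each.

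Genes that work with the 9 in other tissues were read from lists of their pathways. Of the 10 genes of the microvillus actin core, where plastin 1 acts, 5 could be tested in HFCFD2W and none was called, though 2 had an unadjusted p below 0.05. There was 1 of 5 that rose in HFCFD8W+T10D, the actin bundler *Espn*, from 0.971 ± 0.363 to 3.82 ± 0.701 CPM with a log2 fold change of 1.97 (adjusted p = 4.34e-04). In HFCFD12W+T10W 4 of 7 rose and the median log2 fold change was 1.89. *Ezr*, the membrane linker ezrin, went from 6.89 ± 1.52 to 24.8 ± 9.41 CPM, 1.89 (adjusted p = 3.06e-05), and *Espn* had 2.03 (adjusted p = 4.13e-04). The controls of *Vil1* (villin) and *Myo7b* were at 3 counts or fewer, and knockout means were at least 6.45-fold and 7.01-fold higher than a floor of 3 counts per library, with adjusted p of 1.99e-06 and 1.71e-06 in edgeR. Both entered the fit through their knockout mice, so the 4 of 7 and the median of 1.89 lean toward rises. *Slc9a3r1* had -0.63 (adjusted p = 1.30e-05), negative and under a fold change of 2.

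None of the 10 genes of citrate use was called in any experiment, with 2, 2 and 7 at an unadjusted p under 0.05 in edgeR, while *Slc13a5* differed by ratios over 5. *Acly*, which splits cytosolic citrate, had log2 fold changes of 0.04 (adjusted p = 0.936), 0.78 (adjusted p = 0.0513) and 0.33 (adjusted p = 0.0666). *Slc25a1*, the mitochondrial citrate exporter, had -0.01 (adjusted p = 0.943), 0.29 (adjusted p = 0.125) and -0.02 (adjusted p = 0.881). Over the list the median was 0.01, 0.25 and -0.11, and the range in HFCFD12W+T10W was -0.57 to 0.42.

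Mucosal secretion genes, the company of *Tff3* in goblet cells, were mostly without counts, and 2 of 12 could be tested in the first 2 experiments and 3 in the last. No gene was called in HFCFD2W or HFCFD8W+T10D, with 1 and 0 at an unadjusted p under 0.05. In HFCFD12W+T10W *Muc1*, a transmembrane mucin, rose from 0.708 ± 0.272 to 9.78 ± 1.33 CPM, 3.83 (adjusted p = 1.11e-07), and *Pigr*, the polymeric immunoglobulin receptor, fell from 1358 ± 203 to 541 ± 112 CPM, -1.28 (adjusted p = 2.12e-05). *Fcgbp* had 0.13 (adjusted p = 0.659).

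Basement membrane genes, the setting of *Tinag*, differed by experiment. *Lama3* alone was called in HFCFD2W, where it rose from 7.43 ± 1.08 to 19.2 ± 3.92 CPM, 1.37 (adjusted p = 8.41e-05), of 15 tested. In HFCFD8W+T10D it was again the 1 gene called, of 16, and it was lower, 10.4 ± 4.42 against 4.18 ± 2.00 CPM, -1.30 (adjusted p = 0.0308), a call lost without any 1 of knockout replicates 1, 3 and 5 or control replicates 2, 3 and 4. In HFCFD12W+T10W 15 of 19 rose and *Lama3* fell, -1.37 (adjusted p = 0.0104), and the median log2 fold change was 1.77, beside 0.01 over all genes tested. Among those with the smallest p there were *Nid1*, from 16 ± 2.73 to 60.2 ± 6.33 CPM with a log2 fold change of 1.95 (adjusted p = 1.32e-07), *Lama2* 2.68 (adjusted p = 2.59e-07), *Lama5* 2.39 (adjusted p = 3.99e-07), *Col4a2* 1.77 (adjusted p = 4.42e-07) and *Col4a1* 1.77 (adjusted p = 4.42e-07). These are a nidogen, laminin chains and collagen IV chains. Stellate markers, led by *Dcn*, summed to 268 to 322 CPM in controls and 589 to 729 CPM in knockout mice of HFCFD12W+T10W and to 125 to 213 and 118 to 236 CPM in HFCFD2W, and their part in this was not tested.

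**Figure D5:**
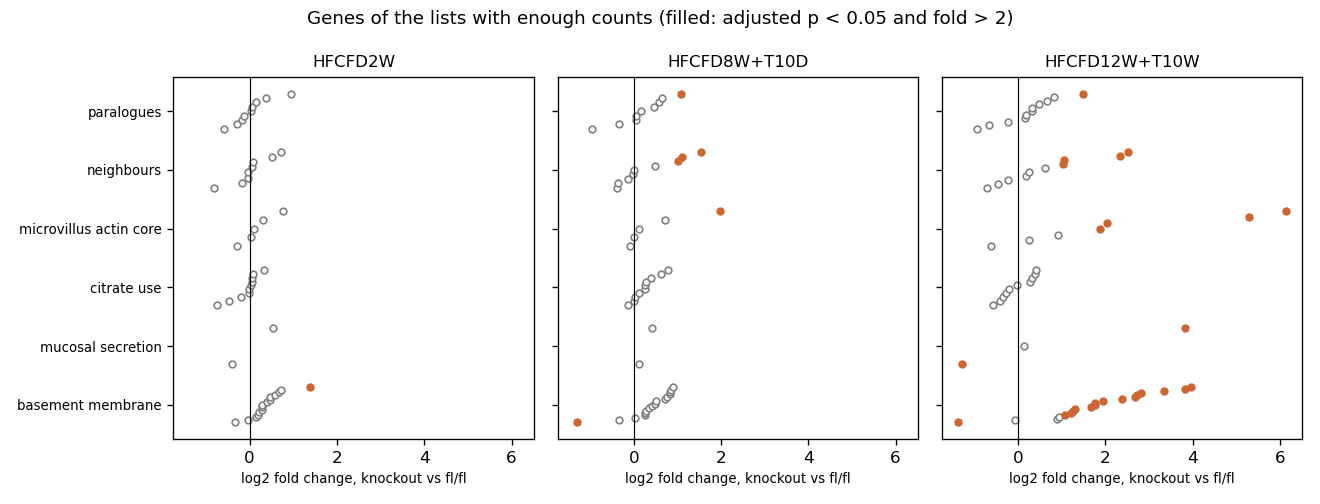
Log2 fold change of knockout against *Cebpa* fl/fl liver for each gene with enough counts in the paralogue, neighbour and 4 pathway lists, 1 panel per experiment and 1 point per gene (n = 5 mice per group). Filled points were called in edgeR, of which HFCFD2W has 1 (*Lama3*), and most of those in HFCFD12W+T10W are basement membrane genes. The values of *Vil1* and *Myo7b* rest on controls at 3 counts or fewer.

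Markers of other cells moved with some of these results. The 10 cholangiocyte markers summed to 11.4 to 16.2 CPM in controls and 11.1 to 17.9 CPM in knockout mice of HFCFD2W, 14 to 20.9 and 24.8 to 31.3 CPM in HFCFD8W+T10D, and 10.4 to 14.1 and 69.4 to 109 CPM in HFCFD12W+T10W. Of them 0 of 2 tested, 3 of 7 and 8 of 9 rose in the 3 experiments in turn, beside 1.69%, 4.09% and 14.3% of all genes tested. Markers near 0 in controls, such as *Cftr* in HFCFD12W+T10W, entered the fit through their knockout mice, so these counts lean toward rises. *Epcam*, *Prom1* and *Ehf* rose in both inducible experiments, and *Krt19* and *Krt7* only in HFCFD12W+T10W. In HFCFD8W+T10D *Krt19* had a log2 fold change of -0.51 (adjusted p = 0.417 in edgeR) and *Krt7* -0.19 (adjusted p = 0.782). In HFCFD2W, where 8 of the 9 genes stood apart, the summed range overlapped that of controls, while *Epcam*, too low for the fit, averaged 0.509 CPM in controls and 1.59 CPM in knockout mice. *Krt19* was there at 1.25 and 1.16 CPM and *Krt7* at 0.816 and 0.558 CPM. The part of these cells was not tested in any experiment. The 7 hepatocyte markers, led by *Alb*, summed to 96939 to 126163 CPM in controls and 103454 to 153662 CPM in knockout mice of HFCFD2W. These sums were 101543 to 124487 and 50037 to 101239 CPM in HFCFD8W+T10D, and 86229 to 107119 and 44062 to 52672 CPM in HFCFD12W+T10W. Of these 7, 1 rose in HFCFD2W, 1 fell in HFCFD8W+T10D and 2 fell in HFCFD12W+T10W.

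Of 6 enterocyte markers, 5 were at 3 counts or fewer in all 30 libraries, and the other, *Fabp2*, which liver also makes, gave nearly all of the sum. Brain markers, beside *Fam107a*, summed to 29.7 to 41 CPM in controls of HFCFD2W and 12.7 to 25.9 CPM in those of HFCFD8W+T10D, led by *Syt1* and *Aqp4*, where *Fam107a* averaged 0.188 and 17 CPM. Macrophage markers, led by *Cd5l* or *Lyz2*, summed to 204 to 283 and 249 to 389 CPM in controls and knockout mice of HFCFD2W and 279 to 795 and 903 to 1099 CPM in HFCFD12W+T10W. Endothelial markers, led by *Stab2* or *Kdr*, summed to 128 to 165 and 127 to 197 CPM in HFCFD2W and 127 to 225 and 135 to 152 CPM in HFCFD12W+T10W. Lymphocyte markers, led by *Cd79a* or *Nkg7*, summed to 0.138 to 0.890 and 0.405 to 1.15 CPM in HFCFD2W, 1.12 to 3.36 and 1.31 to 5.95 CPM in HFCFD8W+T10D, and 0.792 to 2.52 and 3.13 to 7.84 CPM in HFCFD12W+T10W, where the groups did not overlap and *Nkg7* rose by 1.91 (adjusted p = 0.00339). The part of these cells in the results was not tested.

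The genes whose profile over the 30 libraries was most like the mean standardized profile of the 9 were *Cystm1* (Pearson r 0.96), *Spp1* (0.96), *Lpl* (0.95), *Itih5* (0.93) and *H19* (0.93), each over 30 libraries of 2 genotypes and 3 experiments, which all these points share. The r values are a description. *Spp1*, which encodes osteopontin, averaged 43.8 CPM in controls and 530.4 CPM in knockout mice of HFCFD2W, 41.2 and 246 CPM in HFCFD8W+T10D, and 46 and 799.6 CPM in HFCFD12W+T10W. *H19*, an imprinted non-coding RNA of fetal liver, averaged 0.582, 0.302 and 0.154 CPM in controls and 4.76, 11.1 and 16.3 CPM in knockout mice. *Lpl*, lipoprotein lipase, which adult hepatocytes make little of, averaged 33.2 and 161 CPM in HFCFD12W+T10W.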

How the data were processed

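Liver mRNA was sequenced from 30 mice, 1 library each, with a poly(A) stranded kit. The authors deposited RSEM expected counts and TPM per gene for every library, and a filtered table of scaled signal (counts divided by 1 factor per library). Their processing notes name Trimmomatic 0.36, STAR 2.5.1, Picard 1.84, RSEM 1.2.22 and mm10. The deposited FPKM table was not used. Expected counts were rounded, filtered with filterByExpr, TMM-normalized and tested with the quasi-likelihood model of edgeR 4.0.16 (R 4.3.3), p-values being adjusted after Benjamini and Hochberg across every gene fitted, within each experiment for genotype and over all 30 libraries between experiments. Slopes used the 15 knockout mice. A gene low in controls could pass the filter through its knockout mice alone, which tilts counts of called neighbours and list genes toward rises. CPM in the text is scaled over all 30 libraries, and TPM was used only to set genes side by side. DESeq2 1.42.0 and limma 3.58.1, the latter on log2 of the authors' signal plus 1, were alternatives, with other normalization, no filter, a replicate block and each mouse left out. The statistical steps were tested on simulated data. The members and lists were chosen with earlier results of these data known. Genes named from the lists were those called in at least 1 experiment, up to 6 per list by smallest p, and paralogues averaging at least 1 CPM in a group. Uncalled list genes and neighbours given with values were picked after their values were seen, as background to a member. Some list genes, and 1 further list, are not reported here, though counts over all list genes include them. Replicate means carry SD over 5 mice, and each value rests on 7996128 to 10257366 counts per library.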

Additional observations from a re-analysis of the deposited data

Results flagged for a closer look

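Among 54 groups of 5 mice, 5 held a mouse farther from the others than Dixon's 95% limit allows, where chance gives about 1 in 20 groups of continuous values. Of these, 4 are control groups of a few counts, to which that rate does not apply. *Spink1* stood at 0.908 CPM in HFCFD12W+T10W control replicate 5, on 9 counts against 0 or 1 in the others. *Gipc2* stood at 0 in HFCFD2W control replicate 5, against 1 count in each of the others. *Lrtm2* reached 0.890 CPM in HFCFD2W control replicate 2, on 6 counts against 1, and *Tinag* 0.303 CPM in HFCFD12W+T10W control replicate 5, on 3 counts against 0. *Fam107a* reached 18.3 CPM in HFCFD8W+T10D knockout replicate 4, on 154 counts.

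*Fam107a* had every knockout mouse above every control in HFCFD2W (means 5.56 and 0.188 CPM) and every knockout mouse below every control in HFCFD12W+T10W (4.08 and 13 CPM). *Pigr* did the same, with means of 2039 and 1408 CPM in HFCFD2W and 541 and 1358 CPM in HFCFD12W+T10W. The difference between the experiments was not tested for either gene.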

How the results depend on the processing

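No result reversed under any alternative. Replicate numbers did not pair the mice: same-numbered mice had correlations of their deviations from -0.227 to 0.0715 in HFCFD2W, -0.1 to 0.15 in HFCFD8W+T10D and -0.0922 to 0.159 in HFCFD12W+T10W. With the replicate block, list genes called in HFCFD2W went from 1 to 2, no other count moved by over 1.5 times, and *Abcg1* (0.964) fell under the fold minimum in HFCFD8W+T10D. The block was not run for the slope.

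Neighbours called in HFCFD2W went from 0 to 1 with no low-count filter, in 1 fit of all libraries or with no fold minimum. In HFCFD8W+T10D limma called 1 instead of 3, and in HFCFD12W+T10W no filter gave 8 and limma 2 instead of 4. List genes in HFCFD2W were 4 with no filter, 2 with limma, 3 in 1 fit and 10 with no fold minimum. In HFCFD8W+T10D they were 7, 2, 9 and 14 instead of 4, and in HFCFD12W+T10W 48 with no fold minimum instead of 25. Of the 9 genes, the control contrast of HFCFD8W+T10D with HFCFD2W called 1 by upper quartile normalization, 4 by DESeq2 and 1 within controls alone instead of 2. The control contrast of HFCFD12W+T10W with HFCFD8W+T10D called 1 by DESeq2 instead of 0, and the knockout contrast of these experiments 1 within knockout mice alone instead of 2. Slopes called were 1 with no filter and 2 by DESeq2.

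With each mouse left out in turn, 8 to 8, 7 to 8 and 8 to 8 of the 9 genes were fitted over 2-fold higher in knockout mice of the 3 experiments. No p was asked, and this is a description and no test, since the genotype contrast chose them. For genes it did not choose, where an adjusted p was asked too, leaving mice out gave 0 to 1, 1 to 3 and 2 to 5 neighbours, and 1 to 2, 2 to 7 and 25 to 26 list genes. Neighbours were 1 without HFCFD2W knockout replicate 5, 1 without HFCFD8W+T10D knockout replicate 2 and 2 without HFCFD12W+T10W knockout replicate 1. List genes were 2 without HFCFD2W control replicate 1 or knockout replicate 5 or 6, 7 without HFCFD8W+T10D control replicate 1 and 2 without its knockout replicate 3. Between experiments it gave 1 to 2 and 0 to 1 of the 9 in controls, 4 to 6 and 0 to 3 in knockout mice, and 0 to 1 slopes. The later knockout contrast called 0 without HFCFD12W+T10W knockout replicate 2. The cause of these shifts was not tested. At these depths 3 counts are the floor, so ratios against controls at or under it are bounds.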
